A study of Danio rerio with 5 samples.

Results

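Glycolysis splits glucose into pyruvate in a chain of steps. Hexokinase, glucose-6-phosphate isomerase and phosphofructokinase prepare the sugar, aldolase cleaves it, and glyceraldehyde-3-phosphate dehydrogenase (gapdh) begins the steps that yield ATP and NADH. Lactate dehydrogenase interconverts pyruvate and lactate, and pyruvate dehydrogenase sends pyruvate into the mitochondrion unless a kinase such as pdk4 switches it off. Adult heart muscle draws most of its ATP from mitochondria and can shift its fuel after injury. The 8 gene rows followed here, of 17997 in the tables, sample this chain and were chosen by name and Ensembl ID, gene by gene across time points and cells. They are hk1 (ENSDARG00000039452), gpi (ENSDARG00000012987), a pair of pfkp rows (row 1, ENSDARG00000012801, and row 2, ENSDARG00000028000), aldolase a (ENSDARG00000011665), gapdh (ENSDARG00000043457), ldhba (ENSDARG00000019644) and pdk4 (ENSDARG00000054848). Zebrafish carry duplicated copies of several of these genes, and for gpi and pfkp the symbol does not say which copy a row counts.

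The cells came from cardiac ventricles of adult zebrafish (TL background) that carry TgBAC(nppa:mCitrine), a reporter in which the nppa promoter drives mCitrine in heart muscle next to a wound. The ventricle tip was frozen with a cold probe (cryo-injury), and mCitrine-sorted cells were placed singly into wells at 1, 3 or 7 days post-cryo-injury (dpci). All groups thus share strain, reporter and injury and differ by time. No plate came from uninjured hearts. Each time drew on more than 1 heart, but how the hearts were divided over the plates, whether the 7 dpci plates share fish, and the age of the fish on each plate are not given in the sources used here. SORT-seq tags the 3′ end of each transcript with a well barcode and a molecular tag (UMI); 1 UMI stands for 1 captured molecule, and the numbers need no division by transcript length. The early times had 1 plate each (1 and 3 dpci) and 7 dpci had 3, and the plates, not the cells, were the replicates.

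Wells with at least 500 UMIs were kept as cells, 1175 of 1920 in all, with 169 to 283 cells per plate. Kept cells held 282358 to 1238176 UMIs per plate, and median UMIs per cell ran from 1023 on plate 1 of 7 dpci, the shallowest, to 2700 at 1 dpci. Each plate uses the same 384 well barcodes by design, so barcodes shared between plates carry no information. Markers of heart muscle (8 IDs, all detected on every plate) took 9.69% of UMIs at 1 dpci, 13.5% at 3 dpci and 20.1% to 21.9% at 7 dpci. Macrophage markers (12 IDs, of which 0, 2, 5, 8 and 4 were at 0 on the plates in order of time) took 0.125%, 0.104% and 0.0140% to 0.0167%. Neutrophil markers (4 IDs) took 0.0854% and 0.00358% at 1 and 3 dpci, and were at 0 on plates 1 and 2 of 7 dpci. Endothelial markers (5 IDs) took 0.0293%, 0.0166% and 0.000152% to 0.00248%. Epicardial or fibroblast markers (9 IDs) took 0.130%, 0.0468% and 0.00140% to 0.00244%. Clustering gave 5 clusters rich in heart muscle markers (clusters 1 to 5), an unnamed cluster 6 and a macrophage-like cluster 7. Clusters 6 and 7 held 35, 21, 1, 2 and 2 cells but 34.6%, 18.4%, 1.85%, 1.49% and 4.24% of the UMIs. The early plates thus differ from the late ones in the cells they hold, and results that change when only clusters 1 to 5 are summed are given with both values. In a sum over cells, fewer cells of a type and less RNA per cell cannot be told apart. The names of the deposited tables carry the same run code for 1 and 3 dpci and other codes for 7 dpci, so sequencing run and time cannot be told apart.

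Aldolase a and gapdh rose by 7 dpci, 4.58-fold and 2.78-fold above 1 dpci, and the other 6 rows did not pass the test. That is 2 of 8 rows called higher and 0 called lower, where 7.49% of the 5624 genes tested were called, 2.79% higher and 4.69% lower (edgeR's quasi-likelihood test, Benjamini-Hochberg adjusted p under 0.05). Against 3 dpci the same 2 rows were called higher, at 3.40-fold and 2.50-fold, where 1.87% of all genes were called, 0.64% higher and 1.23% lower. The median log2 fold change of the 8 rows was 0.46 against 1 dpci and 0.03 against 3 dpci, beside −0.13 and −0.09 over all genes tested. Aldolase a ranked 131st and gapdh 409th of 5624 by log2 fold change against 1 dpci. With 1 plate at 1 dpci and 1 at 3 dpci, the spread in these tests comes from the 7 dpci plates, and the lone plates were assumed to vary like them. The calls rested on plate 2 of 7 dpci. Without it edgeR called 0 genes of any kind at adjusted p under 0.05, although 288 genes were higher and 436 lower than at 1 dpci at an unadjusted p under 0.05. Aldolase a then gave 2.30 (adjusted p = 0.409, unadjusted 0.00314) and gapdh 1.46 (adjusted p = 0.409, unadjusted 0.0161) against 1 dpci, so their sizes stayed while the calls were lost. DESeq2 without that plate called both rows against 1 dpci (2.27 and 1.43), where 1.35% of genes were called higher, and aldolase a but not gapdh (adjusted p = 0.164) against 3 dpci, where 0.404% were. Other ways of scaling shifted all genes together. With library totals the median of all genes was −0.85 against 1 dpci and with ERCC spike-in totals −1.78. Measured from that median, aldolase a stood 2.32 higher on the log2 scale with TMM, 2.33 with library totals and 2.42 with ERCC totals, and gapdh 1.60, 1.59 and 1.59. The closeness of these values follows from the common shift and adds no support. Against 0, with ERCC totals, aldolase a was at 0.64 (adjusted p = 0.439) and gapdh at −0.19 (adjusted p = 0.753), and neither was called. The rise of both rows is thus a rise relative to the other transcripts of the plate, and a change in amount per cell was not shown.

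**Figure D1:**
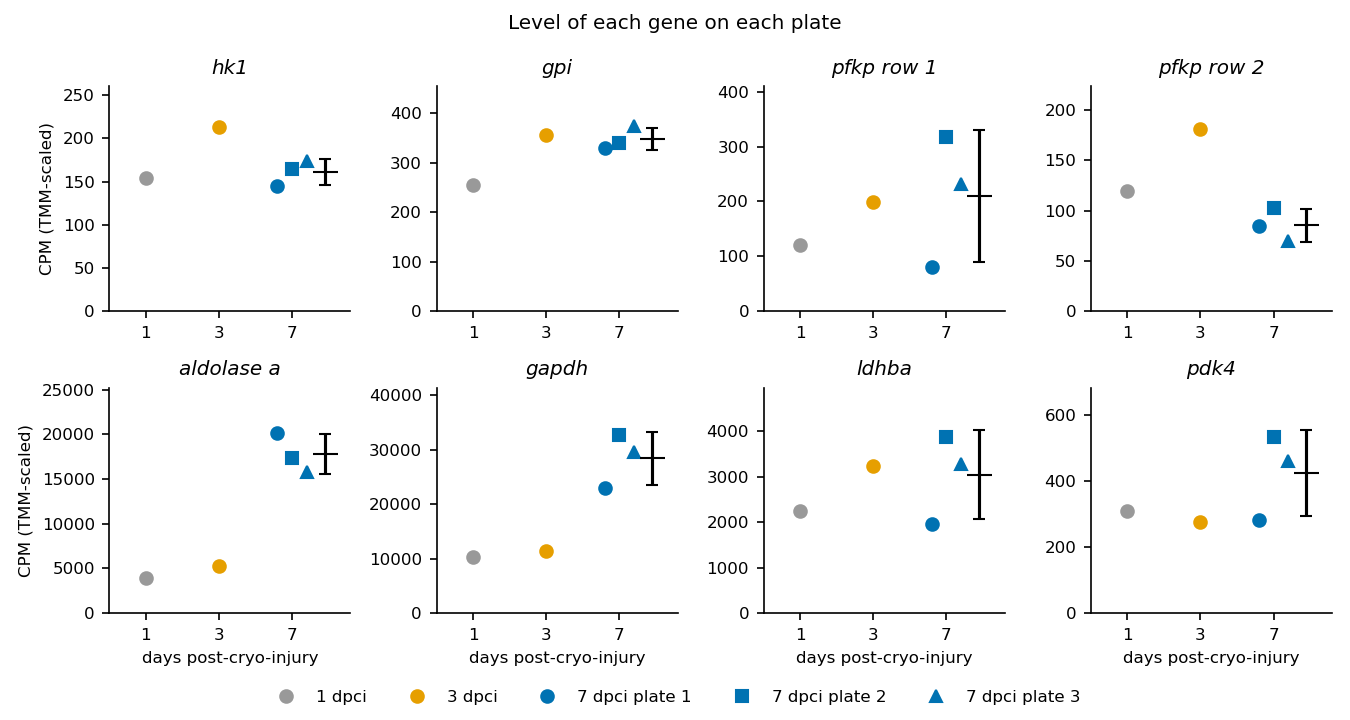
Level of each of the 8 genes on each plate, in CPM, the UMI count scaled to a common plate total with the TMM correction of edgeR; points are plates, and the bar beside the 7 dpci plates is their mean ± SD (n = 3). Every axis starts at 0 and has its own scale; for aldolase a and gapdh the 7 dpci plates lie above both early plates, whereas for pfkp row 1 and ldhba they lie on both sides of them.

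Hexokinase hk1, which traps glucose in the cell as glucose 6-phosphate, was at 154 CPM at 1 dpci, 214 CPM at 3 dpci and 145, 165 and 174 CPM on the late plates 1, 2 and 3. CPM here is the UMI count scaled to a common plate total after the trimmed-mean (TMM) correction of edgeR. The 7 dpci plates (161 ± 15.1, SD, n = 3) lay on both sides of the 1 dpci plate and below the 3 dpci plate. The log2 fold change was 0.07 ± 0.41 (SE) against 1 dpci, with an adjusted p of 0.947 (edgeR). Against 3 dpci it was −0.40 ± 0.40, with an adjusted p of 0.768. Between the single early plates, 3 dpci was 1.39-fold above 1 dpci, with a 95% interval of 1.15 to 1.68 that covers counting error only. Of the UMIs of the 2 hexokinase IDs matched, hk1 took at least 99.5% on every plate.

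The isomerase gpi, which converts glucose 6-phosphate to fructose 6-phosphate, stood at 256 CPM at 1 dpci, 356 CPM at 3 dpci and 330, 339 and 373 CPM at 7 dpci. All 3 plates of 7 dpci were above 1 dpci, and they lay around the 3 dpci plate. In log2 units gpi differed by 0.44 ± 0.36 from 1 dpci (adjusted p = 0.565) and by −0.03 ± 0.35 from 3 dpci (adjusted p = 0.987).

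Phosphofructokinase, the committed and most tightly regulated step of glycolysis, was spread over 5 IDs, and both pfkp rows belong to it. Row 1 was at 121 CPM at 1 dpci, 199 CPM at 3 dpci and 80.4, 317 and 231 CPM at 7 dpci. Row 2 was at 120 CPM at 1 dpci, 181 CPM at 3 dpci and 84.5, 103 and 70.05 CPM at 7 dpci. Row 1 was thus the most variable of the 8 rows among the 7 dpci plates (210 ± 120), with plate 1 below and plates 2 and 3 above both early plates, while row 2 was below both early plates on all 3. Neither change passed the test. Row 1 gave log2 fold changes of 0.82 ± 0.67 (adjusted p = 0.567) and 0.10 ± 0.64 (adjusted p = 0.981) against 1 and 3 dpci. Row 2 gave −0.48 ± 0.44 (adjusted p = 0.621) and −1.08 ± 0.44 (adjusted p = 0.279), and the last of these had an unadjusted p of 0.0368. Without plate 1 of 7 dpci, row 1 was called higher than at 1 dpci, at a log2 fold change of 1.29 (adjusted p = 0.0144), in a fit that called 10.3% of all genes higher. That plate holds 20 and 21 UMIs of the 2 rows, the fewest of any plate.

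The balance within the phosphofructokinases moved between plates. Row 1 per row 2 was 1.01 at 1 dpci and 1.099 at 3 dpci, and at 7 dpci it was 0.952, 3.09 and 3.30. Plates 2 and 3 had about 3 UMIs of row 1 for each of row 2, whereas plate 1 resembled the early plates. The muscle gene PFKM (ENSDARG00000060797) held the largest share of the family at 7 dpci, 36.7% ± 6.87 of its UMIs, next to 33.2% ± 6.22 for row 1 and 17.4% ± 11.04 for row 2 (SD, n = 3). Those of PFKM and row 1 differ by less than their spread.

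Aldolase a, which cleaves fructose 1,6-bisphosphate into a pair of triose phosphates, was at 3880 CPM at 1 dpci, 5229 CPM at 3 dpci and 20205, 17386 and 15759 CPM at 7 dpci. The lowest 7 dpci plate was well above both early plates, and the 7 dpci plates differed little from each other (17783 ± 2250, SD, n = 3). Relative to 1 dpci the difference was 2.20 ± 0.25 on the log2 scale (edgeR, adjusted p = 0.00346), and relative to 3 dpci it was 1.77 ± 0.24 (adjusted p = 0.0161), with 3 of 3 plates in that direction each time. Ordered by level, it was the 19th most abundant gene at 1 dpci, the 13th at 3 dpci and the 7th or 8th on the plates of 7 dpci. Of the UMIs of 4 aldolase IDs it took 74.3% at 1 dpci, 69.8% at 3 dpci and 83.7% ± 3.56 at 7 dpci. In clusters 1 to 5 alone, its level in CPM of the UMIs of those cells, with no TMM, was 6787 at 1 dpci, 7386 at 3 dpci and 18115, 13366 and 13091 at 7 dpci, again with no overlap. In a fit on those clusters the log2 fold change was 1.63 (adjusted p = 0.0230) against 1 dpci, where 0.337% of 4746 genes were called higher. Against 3 dpci it was 1.44 (adjusted p = 0.0533), which did not pass, where 0.211% did.

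Gapdh, which oxidizes glyceraldehyde 3-phosphate and makes NADH, was at 10214 CPM at 1 dpci, 11378 CPM at 3 dpci and 23036, 32674 and 29491 CPM at 7 dpci. All 7 dpci plates (28400 ± 4910) were above both early plates. On the log2 scale this was 1.48 ± 0.26 above 1 dpci (edgeR, adjusted p = 0.0140) and 1.32 ± 0.25 above 3 dpci (adjusted p = 0.0430). It was the 5th or 6th most abundant gene on every plate, so its rank did not move while its share of the UMIs did. The early plates also held most cells of clusters 6 and 7, in which gapdh was low. There it was at 1817 and 1237 CPM (of the UMIs of those cells) at 1 and 3 dpci, against 19305 and 16610 in clusters 1 to 5 of the same plates. Clusters 1 to 5 of the 7 dpci plates were at 20609, 25129 and 24694 CPM, above both early plates. These cluster values carry no TMM. Over all cells, also with no TMM, gapdh was at 13257 and 13788 CPM at 1 and 3 dpci. At 7 dpci it was then at 20289, 24900 and 23702 CPM, a wider gap than in clusters 1 to 5. The fit on clusters 1 to 5 gave log2 fold changes of 0.80 (adjusted p = 0.177) and 0.94 (adjusted p = 0.149), so the call of gapdh was lost in both comparisons.

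**Figure D2:**
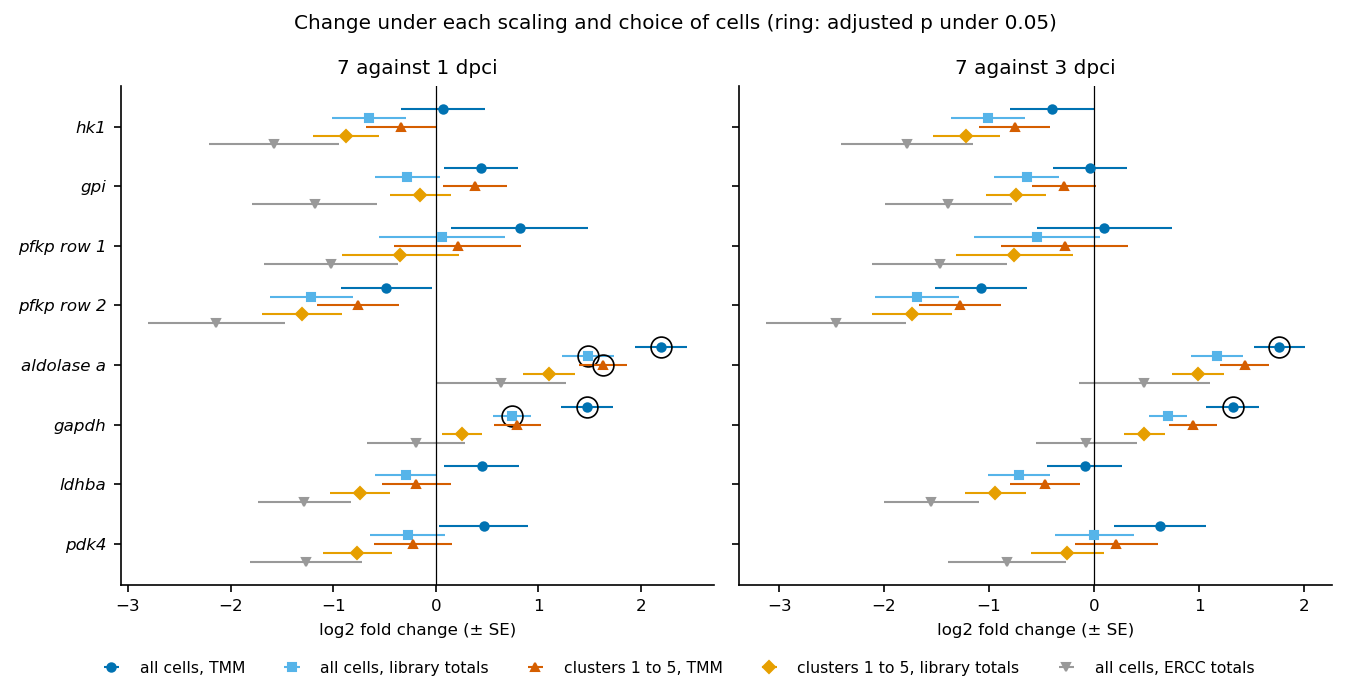
Log2 fold change (± SE, from the fit) of each gene at 7 dpci against 1 dpci (left) and 3 dpci (right), for 2 choices of cells and up to 3 scalings; rings mark an adjusted p under 0.05. Aldolase a stays to the right of 0 in all settings drawn, gapdh falls to 0.80 and 0.94 in clusters 1 to 5 with TMM, and with ERCC totals all rows but aldolase a are left of 0.

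Lactate dehydrogenase B, ldhba, is the isoform that favours the use of lactate as a fuel in heart. It was at 2237 CPM at 1 dpci, 3246 CPM at 3 dpci and 1967, 3885 and 3285 CPM at 7 dpci. Plate 1 of 7 dpci was below both early plates and plates 2 and 3 above both. In log2 units ldhba differed by 0.45 ± 0.37 from 1 dpci (adjusted p = 0.572) and by −0.09 ± 0.36 from 3 dpci (adjusted p = 0.967). Without plate 1 it was called higher than at 1 dpci, at 0.79 (adjusted p = 0.00277), in a fit that called 10.3% of all genes higher. As CPM of the cells of clusters 1 to 5, however, ldhba stood at 4068 and 4702 at 1 and 3 dpci and at 1739, 2978 and 2728 at 7 dpci, with every 7 dpci plate below both early plates. The fit on those clusters with TMM gave −0.19 (adjusted p = 0.913) against 1 dpci, so the sign depended on the cells summed and no call was made. It took at least 99.7% of the UMIs of the 2 IDs matched to LDHB.

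The kinase pdk4, which phosphorylates and inactivates pyruvate dehydrogenase, was at 310 CPM at 1 dpci, 277 CPM at 3 dpci and 282, 534 and 462 CPM at 7 dpci. All 7 dpci plates were above 3 dpci, plate 1 only narrowly, and plate 1 was below 1 dpci. In log2 units pdk4 differed by 0.47 ± 0.43 from 1 dpci (adjusted p = 0.627) and by 0.63 ± 0.44 from 3 dpci (adjusted p = 0.614). Without plate 1 of 7 dpci the latter was 0.90 and was called (adjusted p = 0.0451), as were 6.45% of all genes. It held about the same part of the UMIs of the 5 pyruvate dehydrogenase kinase IDs at each time, 52.98% at 1 dpci, 52.6% at 3 dpci and 50.1% ± 6.68 at 7 dpci. Cells of clusters 6 and 7 held 60.7 CPM at 1 dpci and no UMI at 3 dpci, against 583 and 411 CPM in clusters 1 to 5. The 7 dpci plates were at 245, 407 and 388 CPM in clusters 1 to 5, all below both early plates, plate 2 only narrowly below 3 dpci, so the order against 3 dpci turned with the cells summed and the scaling. The fit on those clusters with TMM gave −0.22 (adjusted p = 0.913) against 1 dpci and 0.21 (adjusted p = 0.939) against 3 dpci.

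Counted by plates that do not overlap, 3 of 8 rows had all 7 dpci plates above 1 dpci (aldolase a, gapdh and gpi), where 25.5% of all genes did, and 1 (pfkp row 2) had all below, where 37.2% did. Against 3 dpci, 3 rows (aldolase a, gapdh and pdk4) were above on all plates, beside 23.2% of genes, and 2 (hk1 and pfkp row 2) were below, beside 33.6%. These counts are on TMM-scaled levels and depend on that scaling. As plain shares of the plate's UMIs, an alternative chosen after seeing the data, 2 rows (aldolase a and gapdh) were above 1 dpci, beside 13.1% of genes, and 3 (hk1, gpi and pfkp row 2) were below, beside 59.3%. Against 3 dpci the same 2 were above, beside 11.5%, and 4 (hk1, gpi, pfkp row 2 and ldhba) were below, beside 56.3%. Gpi, for example, was at 0.0332% of UMIs at 1 dpci and at 0.0290%, 0.0259% and 0.0300% at 7 dpci. Between the early plates, 7 of 8 rows had a counting interval above 1-fold at 3 dpci, all but pdk4, where 17.9% of 5619 genes did, and 0 of 8 had it below, where 21.3% did. Their log2 ratios ran from 0.16 for gapdh to 0.72 for pfkp row 1, and that of pdk4 was −0.16 with an interval of −0.38 to 0.06. These ratios rest on 1 plate a side and were not tested, and that of gapdh turned to −0.15 in clusters 1 to 5. With ERCC totals the log2 intervals of hk1 (−0.071 to 0.478) and gpi (−0.0072 to 0.416) covered 0. Without cells above 3 times the plate median that of pfkp row 1 did (−0.058 to 0.666), and aldolase a fell to 0.022. Genes with more UMIs have narrower counting intervals, and the 8 rows ranked 5th to 889th of 5624 by level at 1 dpci. The shares over all genes, most of them less abundant, are thus not a like comparator.

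The sign of the change in hk1, gpi, pfkp row 1, gapdh, ldhba and pdk4 against 1 dpci turned with the scaling between plates. Over all cells, pfkp row 1 and gapdh turned only with ERCC totals. Ratios between genes of the same plate do not depend on that scaling. Aldolase a per gapdh was 0.380 at 1 dpci, 0.460 at 3 dpci and 0.877, 0.532 and 0.534 at 7 dpci. Gapdh per ldhba was 4.57 at 1 dpci, 3.51 at 3 dpci and 11.7, 8.41 and 8.98 at 7 dpci. Both ratios were higher on every 7 dpci plate than on the early plates, and stayed so in clusters 1 to 5, where gapdh per ldhba was 4.75, 3.53, 11.9, 8.44 and 9.05 in the same order. Aldolase a per gpi was 15.2 at 1 dpci, 14.7 at 3 dpci and 61.3, 51.2 and 42.3 at 7 dpci, and gapdh per hk1 was 66.5, 53.2 and 159, 198 and 169. Over all cells, aldolase a and gapdh thus gained on hk1, gpi and ldhba by more than the spread (SD) of the 7 dpci plates. Gapdh per gpi was 39.9 and 31.96 on the early plates and 69.85, 96.25 and 79.07 at 7 dpci. In clusters 1 to 5 it was 62.5 and 35.5, then 69.65, 96.2 and 84.01. The counting intervals of 1 dpci (55.2 to 71.15) and plate 1 of 7 dpci (56.01 to 87.7) overlapped in those clusters. The gain of aldolase a and gapdh over 1 dpci on pfkp row 1 was smaller than the spread of the 7 dpci plates. Gapdh per pfkp row 1 was 84.6 and 57.2 on the early plates and 286, 103 and 128 at 7 dpci (172 ± 99.6), and aldolase a per pfkp row 1 was 32.1 and 26.3, then 251, 54.8 and 68.2 (125 ± 110). Pdk4 per ldhba, by contrast, was 0.139 at 1 dpci and 0.143, 0.138 and 0.141 at 7 dpci, with 0.0853 at 3 dpci. No test was run on these ratios, since each early time has 1 plate.

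**Figure D3:**
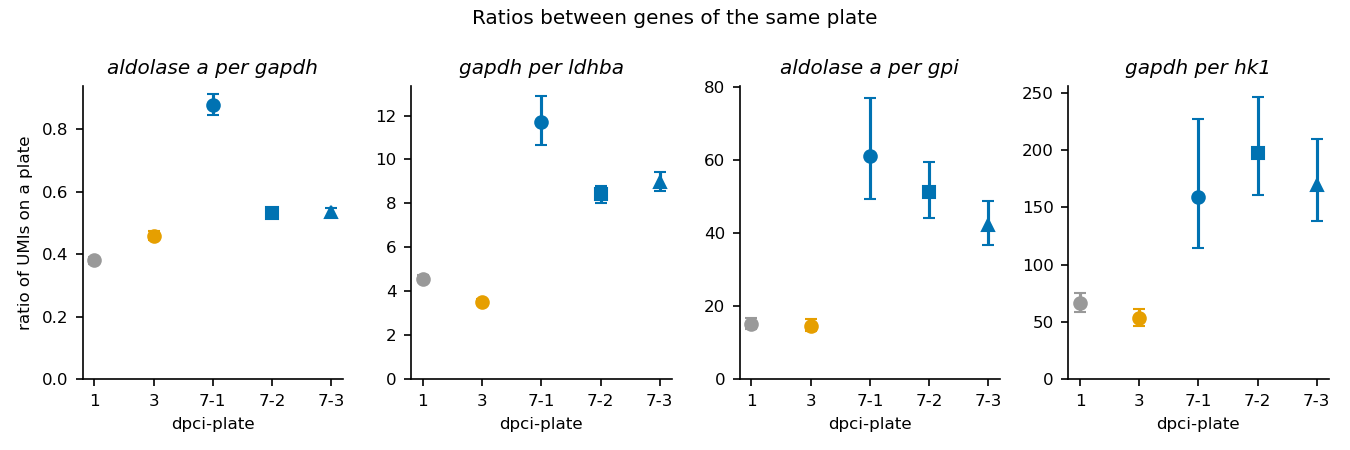
Ratio of the UMIs of named pairs of genes on each plate (7-1, 7-2 and 7-3 are the plates of 7 dpci); bars are exact 95% intervals for counting error. Aldolase a per gapdh is 0.380 and 0.460 on the early plates and 0.532 to 0.877 at 7 dpci, and in each panel the 7 dpci plates lie above both early plates.

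Together the 8 rows took 2.24% and 2.55% of the UMIs of the early plates and 4.10% ± 0.112 of those at 7 dpci (SD, n = 3). Within clusters 1 to 5 they took 3.17%, 3.04% and 4.18% ± 0.0690. Gapdh supplied 59.1% and 53.98% of these UMIs at 1 and 3 dpci and 56.03% ± 5.27 at 7 dpci, so its part changed by less than the spread between plates. Aldolase a supplied 22.4%, 24.8% and 35.6% ± 7.10, and ldhba 12.9%, 15.4% and 5.96% ± 1.48. The combined part of the other 5 rows was small at each time, each at 1.79% or less.

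In single cells, thinned to 1000 UMIs to set all to the same depth, gapdh and aldolase a were found nearly everywhere and differed in amount. Shallower cells were left out, and 240, 211, 90, 189 and 185 cells remained on the plates of 1, 3 and 7 dpci. Gapdh was detected in 95.8%, 95.3%, 100%, 100% and 100% of them, and aldolase a in 95.4%, 96.7%, 96.7%, 99.5% and 99.5%. Median aldolase a UMIs per cell were 6 at 1 and 3 dpci and 18, 13 and 11 at 7 dpci. Median gapdh UMIs were 16, 15, 22, 26 and 25. Both medians were thus higher on every 7 dpci plate than on the early plates, while the 3 dpci medians were not above those of 1 dpci. For gapdh the quartile ranges of early and late plates overlapped. For aldolase a the lower quartiles at 7 dpci were 11.25, 8 and 8, against upper quartiles of 8 at 1 dpci and 9 at 3 dpci, so overlap was smaller. Restricted to clusters 1 to 5, the medians were 7, 6, 19, 13 and 11 for aldolase a and 18, 17, 22, 26 and 25 for gapdh. All 7 dpci medians stayed above the early ones there, and the 1 dpci medians of both genes were somewhat higher than over all cells.

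**Figure D4:**
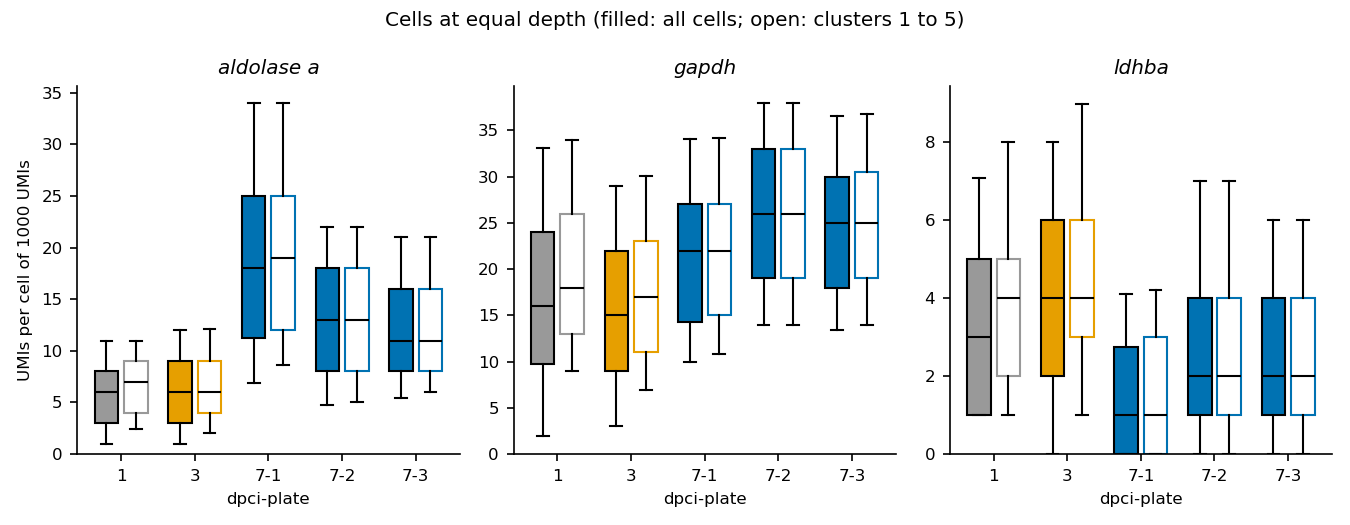
UMIs of aldolase a, gapdh and ldhba per cell after thinning every cell to 1000 UMIs; boxes span the quartiles with the median as a line, whiskers run from the 10th to the 90th percentile of cells, filled boxes show all cells and open boxes clusters 1 to 5. The median of aldolase a is 6 on both early plates and 11 to 18 at 7 dpci, while that of ldhba is 3 and 4 on the early plates and 1 to 2 at 7 dpci.

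Ldhba was detected in fewer cells at 7 dpci than before at equal depth, in 91.3% at 1 dpci, 89.1% at 3 dpci and 64.4%, 83.6% and 83.8% at 7 dpci. Without thinning, where depth differs between plates, its shares are not comparable in this way. The less abundant rows were each found in a minority of cells. At 1, 3 and 7 dpci, gpi was found in 21.7%, 34.1% and 15.9% to 17.8%, and hk1 in 15.4%, 20.4% and 5.82% to 8.65%. Pdk4 was found in 33.3%, 25.6% and 20% to 26.98%. For pfkp row 1 the shares were 13.3%, 17.1% and 6.67% to 20.1%, and for row 2 they were 11.3%, 15.6% and 3.33% to 4.23%. Of these, gpi, hk1 and row 2 had every 7 dpci plate below both early plates. How many of all genes did so in share of cells was not counted. As shares of the plate's UMIs, 59.3% of genes were below 1 dpci on all 7 dpci plates and 56.3% below 3 dpci. A fall was thus common by that other measure, by which ldhba was not below 1 dpci on plate 2 (0.296% against 0.290%). Whether the falls in share of cells are particular to these rows or to ldhba was not tested. These shares cover cells with a UMI, not cells that express the gene. Free RNA was not estimated, since no well of a cell type that lacks these housekeeping enzymes was at hand. Clusters 6 and 7 of 1 dpci, the nearest to such cells, held hk1 at 145 and gpi at 376 CPM, next to 228 and 309 CPM in clusters 1 to 5. In CPM at 1 dpci, hk1 and gpi thus differed less between the classes than gapdh, aldolase a, ldhba and pdk4, which were several-fold lower in clusters 6 and 7. Pfkp row 1 was at 51.4 CPM there and 212 in clusters 1 to 5, and row 2 at 138 and 165. Cells of clusters 6 and 7 were deeper, at 2.49 and 4.75 times the median. At least 7 of the 8 heart muscle markers were found in at least 50% of the cells of each. Per cell, aldolase a was at 21.1 UMIs in clusters 6 and 7 and 22.2 in clusters 1 to 5 of 1 dpci. Hk1 was higher in clusters 6 and 7, at 1.77 against 0.746, and so was gpi. Gapdh was still lower, at 22.2 against 63.04, as were ldhba and pdk4. At 3 dpci hk1 was also lower in clusters 6 and 7, at 118 against 291 CPM, and gpi at 271 against 467. Since the clusters were made from these counts, that is a description.

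Across cells of a plate, the rows with a UMI in at least 10% of the cells of every plate were compared with 509 genes by Spearman's rho on thinned counts, averaged over the 5 plates. Cells of a plate share a library, and sparse counts hold rho down. Gapdh was most like the muscle genes MYL7 (0.42) and cmlc1 (0.38), both cardiac myosin light chains, and AK1 (0.36), adenylate kinase. Aldolase a was most like ATP5F1B (0.37) and ATP5F1A (0.35), subunits of the mitochondrial ATP synthase, and mb (0.35), myoglobin. For ldhba the nearest were TNNT2 (0.43), MYH7 (0.36) and actn2b (0.34), genes of the sarcomere. The correlations of gpi and pdk4 were weak, at most 0.19 and 0.20. Hk1 and both pfkp rows were too sparse to be compared.

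Of the other glycolytic enzymes, 17 IDs matched and 13 were tested, of which 4 were called higher at 7 than at 1 dpci and 0 lower, with a median log2 fold change of 0.98 over the 13, where 2.79% of all genes were called higher and 4.69% lower. PGAM2, the muscle phosphoglycerate mutase, was at 560 CPM at 1 dpci, 741 at 3 dpci and 1894, 2073 and 2117 at 7 dpci. It differed by 1.86 ± 0.29 in log2 from 1 dpci (adjusted p = 0.00979) and by 1.45 ± 0.28 from 3 dpci (adjusted p = 0.0442), and it was the only gene of this list called in the second comparison. ENO3, muscle enolase, was at 1507 CPM, 1995 CPM and 3221, 7756 and 7198 CPM, at 2.01 ± 0.49 (adjusted p = 0.0436) against 1 dpci. A second ALDOA row (ENSDARG00000034470) rose by 1.59 ± 0.30 on the log2 scale (adjusted p = 0.0201), and TPI1 (ENSDARG00000040988), triose phosphate isomerase, by 1.41 ± 0.32 (adjusted p = 0.0354). All 4 lie at or after the aldolase step, but so do all other genes tested on this list except PFKM and PFKL. Position in the pathway thus does not set the 4 apart. Genes at or after that step that were not called against 1 dpci were ALDOC (0.29), TPI1 (ENSDARG00000025012, 0.59), GAPDHS (−0.59), pgam1a (0.54), pgam1b (0.38), ENO1 (0.98) and eno2 (1.17). PFKM, the muscle phosphofructokinase, gave 1.07 ± 0.69 (adjusted p = 0.440) against 1 dpci. Summed over clusters 1 to 5, none of the 4 was called in edgeR, with log2 fold changes of 0.84 to 1.38 against 1 dpci and adjusted p from 0.0701 to 0.244. The counts also turned with the scaling. With library totals, 1 of the 13 was called higher (PGAM2, 1.14, adjusted p = 0.0341), beside 0.871% of all genes, and 1 lower, beside 8.84%. With ERCC totals 0 were called higher, beside 0.0889%, and 1 lower, beside 15.7%, and ALDOA and TPI1 stood at −0.071 and −0.28. The gene called lower in both was GAPDHS (ENSDARG00000039914), named after its values were seen, at −0.59 with TMM, where it was not called.

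**Figure D5:**
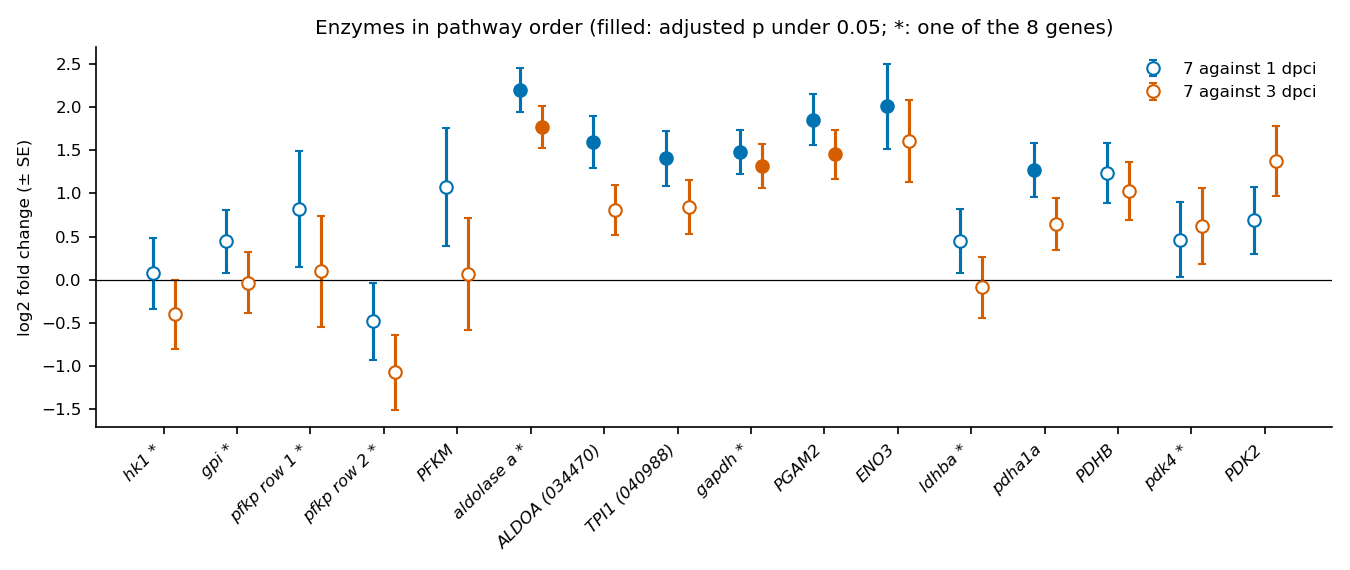
Log2 fold change (± SE) at 7 dpci against 1 dpci (blue) and 3 dpci (orange) for enzymes in the order of the pathway; filled points have an adjusted p under 0.05 over all genes tested, and asterisks mark the 8 genes followed here. Of the rows drawn, hk1, gpi, pfkp and PFKM are open and the first filled point is aldolase a. Not all tested rows are drawn. PFKL, before aldolase, and ALDOC, TPI1 (ENSDARG00000025012), GAPDHS, pgam1a, pgam1b, ENO1 and eno2, at or after it, were not called and are left out. The figure thus shows no threshold along the pathway.

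Around pyruvate, 11 IDs of pyruvate dehydrogenase and its kinases matched and 8 were tested. Of these 1 was called higher at 7 than at 1 dpci and 0 lower, beside 2.79% and 4.69% of all genes. This was pdha1a, the E1 alpha subunit that pdk4 phosphorylates, at 449 CPM at 1 dpci, 692 CPM at 3 dpci and 973, 1180 and 1094 CPM at 7 dpci. It differed by 1.27 ± 0.31 in log2 from 1 dpci (adjusted p = 0.0437) and by 0.65 ± 0.30 from 3 dpci (adjusted p = 0.357). PDHB, the E1 beta subunit, gave 1.24 ± 0.35 (adjusted p = 0.0666) and DLD, the E3 subunit, 1.41 ± 0.37 (adjusted p = 0.0526) against 1 dpci, and neither passed. Of the same complex, PDHX gave 0.99 ± 0.54 (edgeR, adjusted p = 0.347) and DLAT only 0.32 ± 0.46 (adjusted p = 0.781). DLAT was at 400 CPM at 1 dpci, 369 CPM at 3 dpci and 298, 673 and 515 CPM at 7 dpci, on both sides of the early plates. PDK2 (ENSDARG00000020876), another kinase of the complex, gave 0.69 ± 0.38 (adjusted p = 0.361). Within clusters 1 to 5 pdha1a gave 0.65 against 1 dpci and was not called. It also lost its call in edgeR with library totals (0.54, adjusted p = 0.218) and turned with ERCC totals (−0.37, adjusted p = 0.610).

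For lactate and pyruvate transport, 10 IDs matched, 6 were tested and 0 were called by edgeR, beside 7.49% of all genes against 1 dpci. The mitochondrial pyruvate carrier subunits MPC1 and MPC2 (ENSDARG00000024478) gave log2 fold changes of 1.15 ± 0.47 (adjusted p = 0.197) and 0.56 ± 0.37 (adjusted p = 0.469) against 1 dpci. A second MPC2 row (ENSDARG00000037679) gave the highest value of this list, 1.66 ± 0.47 (edgeR, adjusted p = 0.0676), and did not pass. It was at 52.9 CPM at 1 dpci, 93.7 CPM at 3 dpci and 161, 174 and 167 CPM at 7 dpci. The lactate carrier SLC16A1 gave −0.48 ± 0.61 (adjusted p = 0.746). Among glucose uptake and its regulators, 24 IDs matched, 12 were tested and 1 was called, lower in both comparisons, beside 4.69% and 1.23% of all genes. This was slc2a3b, a glucose transporter, with 125 UMIs at 1 dpci, 49 at 3 dpci and 0, 0 and 1 at 7 dpci (adjusted p = 0.0101 and 0.0368). Within clusters 1 to 5 it was below the level required for a test. PYGM (ENSDARG00000013317), muscle glycogen phosphorylase, gave 1.47 ± 0.54 (adjusted p = 0.149), PFKFB3, which makes the activator of phosphofructokinase, −2.98 ± 0.87 (adjusted p = 0.0759), and HIF1A, which drives glycolytic genes in low oxygen, −0.83 ± 0.51 (adjusted p = 0.411). Over all 4 lists, 39 genes were tested, and 5 were called higher and 1 lower at 7 than at 1 dpci, beside 2.79% and 4.69% of all genes. With library totals 1 was called higher and 2 lower, beside 0.871% and 8.84% of all genes. With ERCC totals 0 were called higher and 3 lower, beside 0.0889% and 15.7%. Without plate 1 of 7 dpci, 19 of 38 were called higher and 3 lower, beside 599 and 725 of the 5810 genes tested. Without plate 2 none was called in edgeR, nor was any other gene. DESeq2 without plate 2 called 3 higher and 1 lower, beside 80 and 100 of 5942 genes.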

How the data were processed

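SORT-seq tables of 5 plates were analysed. They hold estimated counts that the authors made from UMIs per gene and well, corrected for UMI collisions and not scaled to depth. BWA 0.6.2 is named in the submitters' processing notes, and the methods name the Zv9 genome. A symbol table named 14285 of the 17997 gene IDs. The 8 genes and the gene lists were chosen with earlier results of these data known. ERCC spike-ins and mitochondrial genes (13 named, 2 unnamed IDs) were removed, and wells with at least 500 UMIs were kept. No doublet caller was run. The 118 cells above 3 times their plate's median were left out in an alternative. UMIs were summed per plate, rounded and tested with edgeR 4.0.16 in R 4.3.3 (TMM, mean of at least 10 CPM, quasi-likelihood, two-sided, Benjamini-Hochberg over all genes tested, threshold 0.05), all 5 plates in 1 fit. The script was tested on simulated counts. Clusters came from Seurat 5.3.0, and cluster names were rebuilt from marker lists. Intervals are exact at 95% and cover counting error only. Whether the plates of 7 dpci came from separate fish is not given, so p-values measure the spread between plates, which may be technical. From the 4 pathway lists, genes were named if called or if the most abundant of their family, with the less abundant regulators summarised by count. The glycolytic genes tested but not called, DLAT, PDHX and the second MPC2 row were named after their values were seen. Alternatives were library totals, ERCC totals, DESeq2 1.42.0, no CPM minimum, other choices of cells and each 7 dpci plate left out.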

Additional observations from a re-analysis of the deposited data

How the results depend on the processing

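No paired analysis was possible because only the 7 dpci plates carry replicate numbers. Genes called against 1 dpci (421) were 888 with ERCC totals, 697 with no CPM minimum, 32 in clusters 1 to 5, 249 with at least 1000 UMIs per cell and 0 to 1324 with a 7 dpci plate left out. Against 3 dpci (105) they were 201 with DESeq2, 311 with no minimum, 20 in clusters 1 to 5, 294 without cells above 3 times the plate median, 55 with at least 1000 UMIs and 0 to 790 with a plate left out. Of the 8 rows, 2 were called in each comparison. That count was 0 in both with ERCC totals, 0 against 3 dpci with library totals, 1 and 0 in clusters 1 to 5, 1 and 1 with at least 1000 UMIs, 0 to 4 against 1 dpci and 0 to 3 against 3 dpci with a plate left out.

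Aldolase a kept its direction in all 12 alternatives of each comparison. It lost its call with ERCC totals (0.64 and 0.48), in edgeR without plate 2 of 7 dpci, and in clusters 1 to 5 with library totals (1.104 and 0.99). Against 3 dpci it also lost its call with library totals (1.17) and in clusters 1 to 5 (1.44). With a plate left out it ranged from 2.20 to 2.36 and from 1.72 to 1.88. Gapdh turned with ERCC totals (−0.19 and −0.075). It lost its call in clusters 1 to 5 (0.80 and 0.94, with library totals 0.25 and 0.48), with at least 1000 UMIs (1.40 and 1.28) and in edgeR without plate 2. Against 3 dpci it also lost its call with library totals (0.71) and in DESeq2 without plate 2 (1.25). With a plate left out it ranged from 1.46 to 1.72 and from 1.248 to 1.505. Those ranges include plate 2 left out, where the prior degrees of freedom of edgeR were 2.26, against 6.60 with all plates, and the cause was not tested.

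Of the rows not called, these turned against 1 dpci. With ERCC totals hk1 was −1.58, gpi −1.18, pfkp row 1 −1.02, ldhba −1.28 and pdk4 −1.26. With library totals hk1 was −0.65, gpi −0.28, ldhba −0.29 and pdk4 −0.27. Within clusters 1 to 5 hk1 was −0.34, ldhba −0.19 and pdk4 −0.22. Without cells above 3 times the median hk1 was −0.14, ldhba −0.023 and pdk4 −0.12, and with no minimum hk1 was −0.076. Against 3 dpci pfkp row 1 was −1.47 with ERCC totals, −0.54 with library totals, −0.28 in clusters 1 to 5 and −0.017 with no minimum, and pdk4 −0.83 with ERCC totals. With a plate left out, gpi ranged from −0.056 to 0.0565, pfkp row 1 from −0.27 to 0.52, ldhba from −0.26 to 0.20 and pdk4 from 0.48 to 0.90 against 3 dpci. Against 1 dpci pfkp row 1 ranged from 0.51 to 1.29 and ldhba from 0.33 to 0.79. The 3 over 1 dpci ratio of gapdh was −0.12 with ERCC totals, −0.15 in clusters 1 to 5 and −0.23 without cells above 3 times the median.

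A pair of alternatives was added after seeing the data. Clusters 1 to 5 with library totals called 48 and 27 genes and 0 and 0 of the 8 rows. Against 1 dpci it gave hk1 −0.88, gpi −0.15, pfkp row 1 −0.35, aldolase a 1.104, gapdh 0.25, ldhba −0.74 and pdk4 −0.77. Against 3 dpci it gave pfkp row 1 −0.76, aldolase a 0.99, gapdh 0.48 and pdk4 −0.26, and for 3 over 1 dpci gapdh −0.23. DESeq2 without plate 2 called 180 and 64 genes, and 1 row against 3 dpci, where gpi was 0.024, pfkp row 1 −0.28 and gapdh 1.25.

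Depth limits the pfkp rows and hk1 most, with 20 to 36 UMIs each on plate 1 of 7 dpci, where the share of cells with a UMI cannot separate small differences.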
